A study of Homo sapiens with 14 samples.

Results

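This section describes 10 genes of the NRF2 antioxidant pathway in SK-N-BE2, an established human line from a neuroblastoma that carries extra copies of MYCN. The genes were NFE2L2, KEAP1, HMOX1, NQO1, GCLM, GCLC, SLC7A11, SRXN1, TXNRD1 and OSGIN1, taken by name from count tables of 19923 genes. They were chosen as genes of 1 pathway, with earlier results of these data known. RNA was sequenced from 14 libraries in 7 groups of 2 replicates and 2 labelled batches. In batch 1, cells of WT genotype received H2O, 10 µM CoCl2 or 50 µM CoCl2, with the time of exposure not given in the labels. Batch 2 held cells with no treatment, of genotype WT or of genotype TET2 KO, the latter as TET2KO #1, #2 and #3. How the knockouts were produced, and whether each number is 1 clone, is not stated in the labels. All groups were the same MYCN-amplified line grown in RPMI1640 medium with fetal bovine serum. CoCl2 is a cobalt salt used to stabilise hypoxia-inducible factors, and TET2 is an enzyme that oxidises 5-methylcytosine in DNA.

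NRF2, the protein made from NFE2L2, is a transcription factor that drives genes for detoxification and for the glutathione and thioredoxin systems. In resting cells KEAP1 holds NRF2 and presents it for ubiquitination and breakdown. Oxidants and electrophiles modify cysteines of KEAP1, so that NRF2 accumulates, pairs with small MAF proteins and binds antioxidant response elements near its target genes. The pathway is therefore set largely through the NRF2 protein, which these libraries do not measure.

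Libraries of batch 1 held 31214128 to 39540111 counts and those of batch 2 held 52095024 to 59263320. In batch 2 a count mostly stood for 1 read of a pair, so counts of the 2 batches are not on the same scale. The 2 batches were counted with different software settings and were fitted apart, so levels are compared within a batch. Whether replicates were separate cultures is not stated, and p-values measure only the spread between these samples. A chi-square between the replicates of a group, which counting alone would put near 1 per gene, was 1.23 to 1.46 in batch 1. The batch 1 p-values thus rest on a spread little above counting. In batch 2 the chi-square was 3.86 to 5.52, on counts that mostly stood for 1 read of a pair. The dispersion, edgeR's estimate of the spread beyond counting, was 7.66e-05 in batch 1 and 0.000463 in batch 2. Calls in the 2 batches therefore do not stand for differences of like size. The neuroblast markers PHOX2A, HAND2, GATA3, ISL1, TH, DBH and MYCN were expressed in all groups. The leukocyte markers PTPRC and CD3E were at most 0.084 CPM (counts scaled to a common, TMM-normalized library size), while CD68 of that list was 5.09 to 19.0 CPM. Of the epithelial markers KRT5 was at 0 and EPCAM was 0.856 to 2.65 CPM. The fibroblast markers were expressed, DCN at 21.5 to 164, PDGFRB at 13.8 to 44.0 and LUM at 13.3 to 31.0 CPM. TET2 mRNA averaged 67.8 CPM in WT and 78.5, 89.2 and 71.8 CPM in TET2KO #1, #2 and #3. Its mean was thus not below WT in any of them, and the groups are called labelled knockouts below. By edgeR's quasi-likelihood test TET2 was higher in TET2KO #1 (log2 fold change 0.21, adjusted p = 0.000664) and TET2KO #2 (0.40, adjusted p = 3.86e-12). It did not pass in TET2KO #3 (0.08, adjusted p = 0.301). In bulk RNA, fewer cells that express a gene and less RNA per cell cannot be told apart.

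Promoter windows of 250 bases before to 50 after the start site were taken from RefSeq (GRCh38.p14), which gave 11 windows for 8 of the 10 genes, with none for HMOX1 and SLC7A11. Both strands were searched for TGACNNNGC, the core of the antioxidant response element, and for the longer TGACTCAGC, which is a special case of it. The core lay in 4 of the 11 windows, those of 3 genes (GCLM, TXNRD1 and KEAP1), against 13.3% of all 35116 windows of that length. The longer form lay in 0 of the 11 windows and in 0.561% of all windows. The windows printed are 1 for each gene with a match, and that of NQO1, which of the 10 genes had the smallest p at 50 µM CoCl2. Capitals mark matches to the core, as they read on the gene's strand.
GCLM, chr1:93909381-93909680, minus strand: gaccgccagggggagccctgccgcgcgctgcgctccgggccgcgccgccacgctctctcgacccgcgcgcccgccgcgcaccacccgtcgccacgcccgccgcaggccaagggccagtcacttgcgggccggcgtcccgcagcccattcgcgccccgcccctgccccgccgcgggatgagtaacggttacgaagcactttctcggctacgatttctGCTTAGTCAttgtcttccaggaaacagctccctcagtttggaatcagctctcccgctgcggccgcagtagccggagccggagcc
TXNRD1, chr12:104215529-104215828, plus strand: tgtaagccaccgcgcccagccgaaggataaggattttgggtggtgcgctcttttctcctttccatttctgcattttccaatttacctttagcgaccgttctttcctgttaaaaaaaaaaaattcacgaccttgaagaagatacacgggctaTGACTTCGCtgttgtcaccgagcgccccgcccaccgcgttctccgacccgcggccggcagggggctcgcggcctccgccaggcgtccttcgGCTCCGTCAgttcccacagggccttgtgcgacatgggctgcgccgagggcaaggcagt
KEAP1, chr19:10502722-10503021, minus strand: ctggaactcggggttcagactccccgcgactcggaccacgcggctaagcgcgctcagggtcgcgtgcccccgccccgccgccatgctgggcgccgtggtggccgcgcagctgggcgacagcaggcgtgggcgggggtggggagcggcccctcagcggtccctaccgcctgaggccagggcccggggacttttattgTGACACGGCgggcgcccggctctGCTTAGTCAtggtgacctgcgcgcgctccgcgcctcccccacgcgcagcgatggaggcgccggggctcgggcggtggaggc
NQO1, chr16:69726511-69726810, minus strand: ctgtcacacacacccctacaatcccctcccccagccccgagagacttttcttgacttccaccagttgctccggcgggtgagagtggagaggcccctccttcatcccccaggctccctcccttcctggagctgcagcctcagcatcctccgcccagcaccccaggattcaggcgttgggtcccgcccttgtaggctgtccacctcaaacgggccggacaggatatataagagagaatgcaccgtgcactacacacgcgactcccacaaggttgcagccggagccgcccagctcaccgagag
The match in GCLM began 34 bases before the start site, and those in TXNRD1 began 99 and 8 bases before it. In KEAP1 the matches began 54 and 31 bases before the start, and the same 9 letters, GCTTAGTCA, stood in GCLM and KEAP1. A second TXNRD1 window held a match 102 bases before its start. The NQO1 window held no match, which says only that these letters are not in this window. A match describes letters and is not evidence of binding.

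Compared per kilobase of counted exon, TXNRD1 was the most abundant of the 10 genes in H2O at 50.8 ± 0.576 CPM per kb (SD, n = 2). KEAP1 followed at 20.6 ± 1.01 and NFE2L2 at 18.5 ± 0.093 CPM per kb, so the inhibitor and its transcription factor had similar mRNA levels. NQO1 stood at 11.6 ± 0.593, GCLC at 6.99 ± 0.195 and GCLM at 5.99 ± 0.112 CPM per kb. HMOX1, SLC7A11 and OSGIN1 were the low end at 1.82 ± 0.126, 1.66 ± 0.035 and 0.215 ± 0.017 CPM per kb. In H2O the libraries of no neighbouring genes in this order overlapped. In WT the order was TXNRD1, KEAP1, NQO1, NFE2L2, GCLM, GCLC, HMOX1, SLC7A11 and OSGIN1, and the only neighbours whose libraries overlapped were NQO1 at 17.4 ± 0.593 and NFE2L2 at 17.0 ± 0.088 CPM per kb.

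SRXN1, the sulfiredoxin that reactivates overoxidised peroxiredoxins (chr20:646615-653370), is left out of that order because its count covers little of its mRNA. Of its 2698 counted exon bases, 2292 (85.0%) are also exon of AL121758.1, another gene counted on the same strand, and 406 are not shared. By default featureCounts gives a read that overlaps 2 genes to neither, and the file headers show no option that changes this. SRXN1 had 18 to 28 counts in each batch 1 library. In batch 2 it had 3 to 12 and failed the filter on low counts, and AL121758.1 had 0 to 7 counts. OSGIN1 shares 8.22% of its counted exon bases with MLYCD on the same strand, and the other 8 genes share none with a counted gene. NFE2L2 and GCLC overlap uncounted transcripts on the same strand over 18.6% and 6.14% of their counted exons. On the opposite strand, NFE2L2, SLC7A11 and NQO1 overlap uncounted transcripts over 3.35%, 8.97% and 19.4%.

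**Figure D1:**
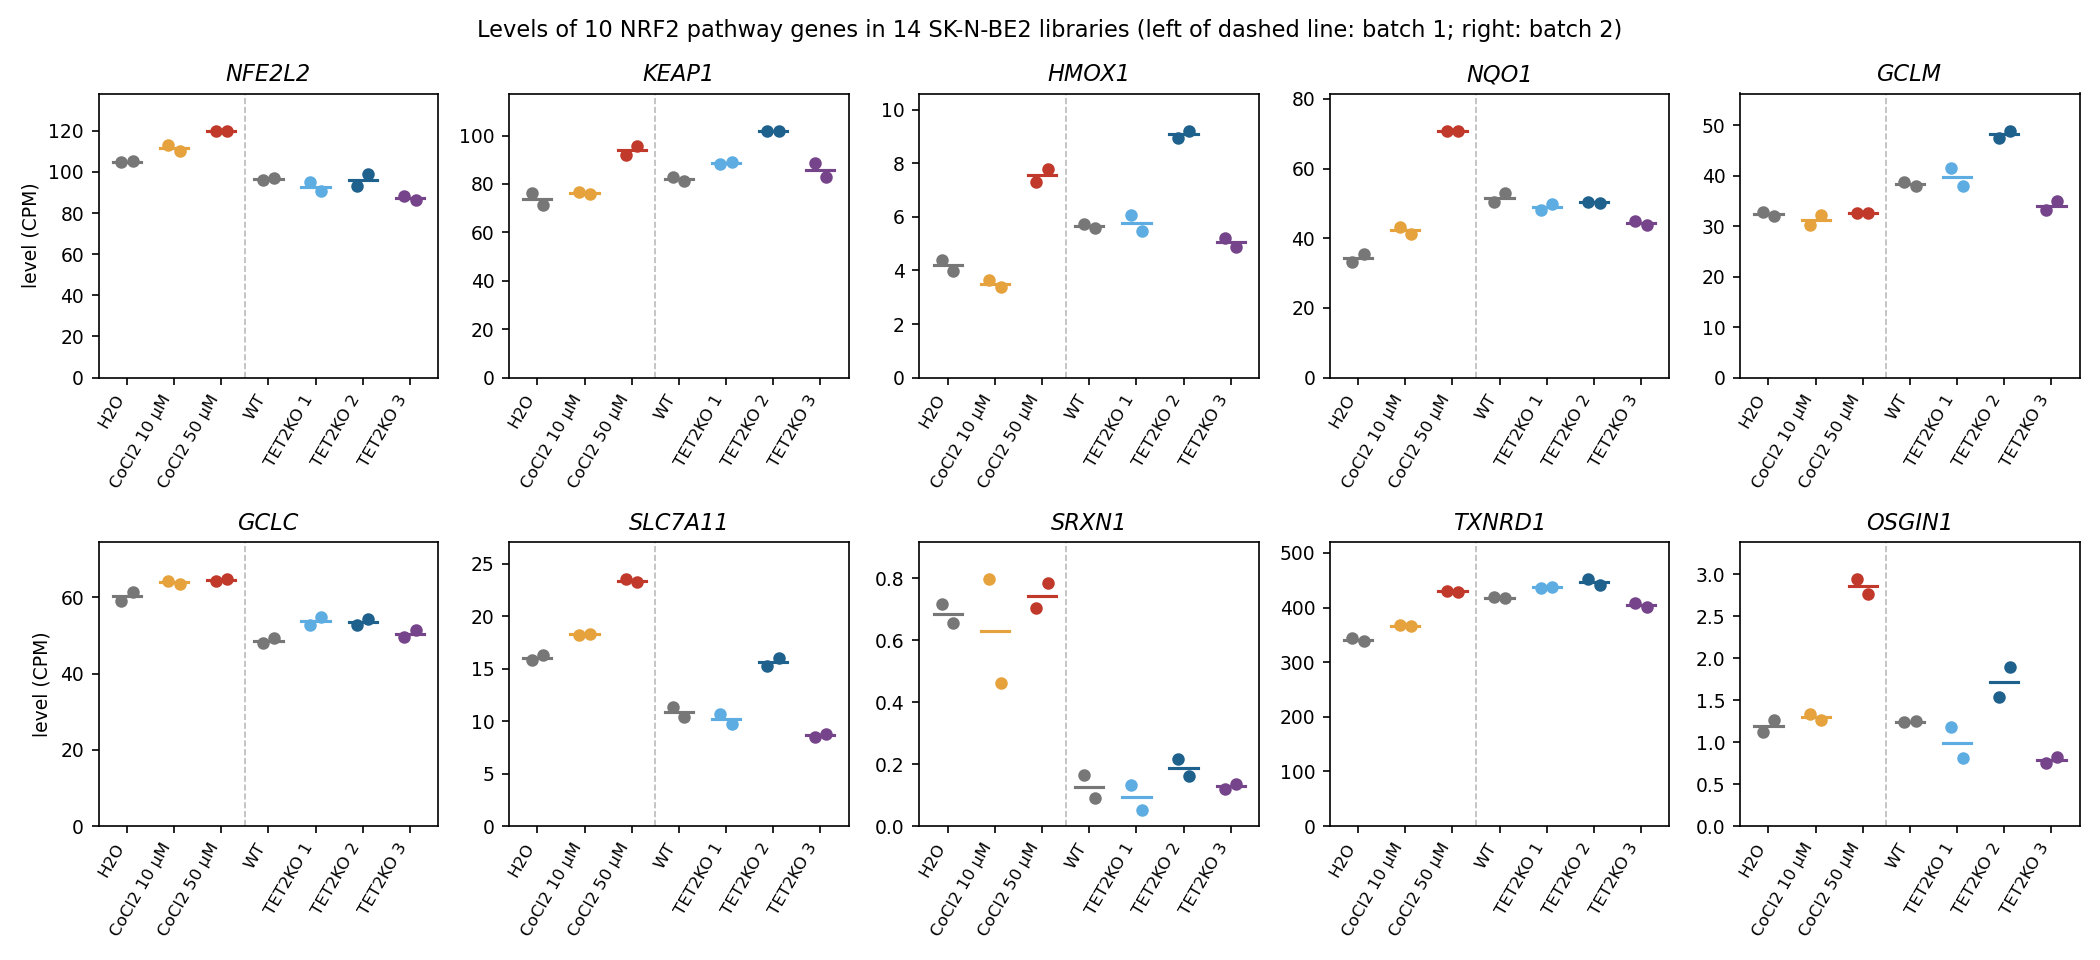
Level of each gene in CPM (vertical axis, from 0) in the 14 libraries, with groups along the horizontal axis. Points are libraries and short lines are group means. At 50 µM CoCl2, NQO1 reads 70.7 and 70.9 CPM against 33.1 and 35.6 in H2O, and in TET2KO #2 HMOX1 reads 8.93 and 9.23 CPM against 5.75 and 5.60 in WT.

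The first question was which of these genes respond to cobalt. At 50 µM CoCl2, 8 of the 10 genes were higher than in H2O and 0 were lower, by edgeR's quasi-likelihood test at a Benjamini-Hochberg adjusted p under 0.05. Among all 13636 genes tested, 30.4% were called higher and 31.1% lower. The median log2 fold change of the 10 genes was 0.34, against 0.002 for all genes. OSGIN1 and NQO1 rose more than 2-fold, HMOX1 and SLC7A11 by 1.81-fold and 1.46-fold, and the other 4 by 1.07-fold to 1.28-fold. GCLM and SRXN1 did not pass.

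Among the regulators, NFE2L2 (chr2:177227595-177392697), which encodes NRF2, read 105 CPM in both H2O libraries, 113 and 110 CPM at 10 µM, and 120 CPM in both libraries at 50 µM. The 3 groups did not overlap and each dose stood above the one before. The log2 fold change was 0.09 (SE 0.027, adjusted p = 0.00832) at 10 µM and 0.19 (SE 0.027, adjusted p = 1.33e-10) at 50 µM. KEAP1 (chr19:10486125-10503558), the repressor of NRF2, read 76.2 and 71.1 CPM in H2O, 76.6 and 75.8 at 10 µM, and 92.0 and 95.7 at 50 µM. Only the 50 µM libraries stood apart. KEAP1 rose by 0.35 on the log2 scale (SE 0.031, adjusted p = 2.00e-21) at 50 µM and gave 0.05 (adjusted p = 0.282) at 10 µM. The 2 regulators of opposite action thus both rose at 50 µM.

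HMOX1 (chr22:35380361-35394207) is heme oxygenase 1, which opens the heme ring to biliverdin, iron and carbon monoxide. It read 4.39 and 3.98 CPM in H2O, 3.65 and 3.37 at 10 µM, and 7.30 and 7.81 at 50 µM. The libraries at 10 µM lay below those of H2O and those at 50 µM lay above. The log2 fold change was -0.26 (95% confidence interval -0.51 to -0.01, adjusted p = 0.137) at 10 µM and 0.85 (SE 0.107, adjusted p = 1.81e-12) at 50 µM. From 10 to 50 µM HMOX1 rose 2.16-fold, 1.11 on the log2 scale (SE 0.114, adjusted p = 7.68e-17).

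NQO1 (chr16:69706996-69726668), a reductase that takes quinones to hydroquinones, read 33.1 and 35.6 CPM in H2O, 43.2 and 41.3 at 10 µM, and 70.7 and 70.9 at 50 µM. The groups did not overlap and the replicates at 50 µM were nearly equal. NQO1 rose by 0.30 on the log2 scale (SE 0.042, adjusted p = 2.11e-09) at 10 µM and by 1.04 (SE 0.038, adjusted p = 3.17e-61), a fold of 2.06, at 50 µM. Its exons overlap an uncounted antisense transcript over 19.4% of their length, and the counting did not use strand.

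Glutathione synthesis begins with glutamate-cysteine ligase, made of a modifier subunit, GCLM, and a catalytic subunit, GCLC. GCLM (chr1:93885199-93909456) read 32.9 and 32.0 CPM in H2O, 30.3 and 32.3 at 10 µM, and 32.6 in both libraries at 50 µM. The groups overlapped, and the log2 fold change at 50 µM was 0.007 with a 95% confidence interval of -0.08 to 0.10 (adjusted p = 0.914). GCLC (chr6:53497341-53616970) read 59.1 and 61.4 CPM in H2O, 64.4 and 63.6 at 10 µM, and 64.4 and 64.8 at 50 µM. Its libraries at both doses stood above those of H2O, with the nearest ones apart by about as much as the H2O libraries were from each other. GCLC gave 0.09 (adjusted p = 0.0507) at 10 µM and 0.10 (SE 0.034, adjusted p = 0.00739) at 50 µM. The 50 µM call did not hold under DESeq2 (adjusted p = 0.0849), in a fit of all 14 libraries (0.0943) or without H2O replicate 1 (0.146).

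SLC7A11 (chr4:138164097-138242349) is the transport subunit of the cystine-glutamate exchanger, which brings in cystine for glutathione, and is also a target of ATF4. It read 15.8 and 16.3 CPM in H2O, 18.2 and 18.3 at 10 µM, and 23.5 and 23.2 at 50 µM. The 3 groups were far apart compared with their replicates. SLC7A11 rose by 0.18 on the log2 scale (SE 0.060, adjusted p = 0.0148) at 10 µM and by 0.54 (SE 0.058, adjusted p = 5.72e-16) at 50 µM.

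TXNRD1 (chr12:104215779-104350307), the cytosolic thioredoxin reductase, read 343 and 338 CPM in H2O, 368 and 367 at 10 µM, and 431 and 429 at 50 µM. The groups did not overlap. It rose by 0.11 on the log2 scale (SE 0.018, adjusted p = 5.17e-07) at 10 µM and by 0.34 (SE 0.018, adjusted p = 5.08e-41) at 50 µM. SRXN1 read 0.715 and 0.656 CPM in H2O, 0.798 and 0.463 at 10 µM, and 0.704 and 0.784 at 50 µM. From its few unshared exon bases the log2 fold change at 50 µM was 0.12, with an interval of -0.48 to 0.72, and no difference was detectable at this depth.

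OSGIN1 (chr16:83931311-83966332), an oxidative stress induced growth inhibitor, read 1.12 and 1.26 CPM in H2O, 1.34 and 1.26 at 10 µM, and 2.94 and 2.77 at 50 µM. The libraries at 50 µM were above all others, on 92 and 99 counts against 44 to 50 in H2O and at 10 µM. OSGIN1 rose by 1.26 on the log2 scale (SE 0.186, adjusted p = 1.30e-09), a fold of 2.39, at 50 µM and gave 0.12 (adjusted p = 0.754) at 10 µM.

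**Figure D2:**
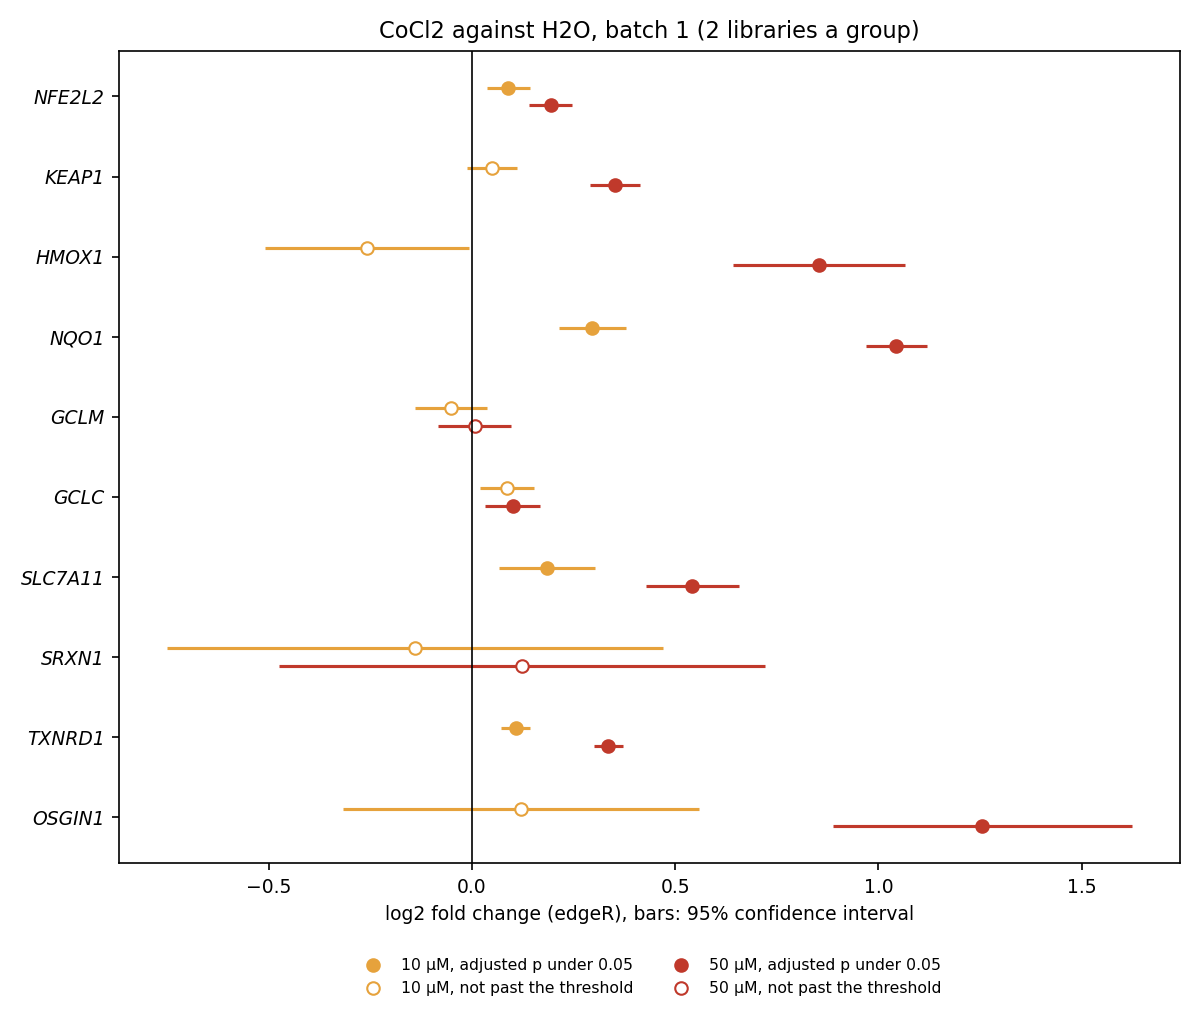
Log2 fold change of each gene against H2O at 10 µM (orange) and 50 µM (red) CoCl2, with 95% confidence intervals, from 2 libraries a group. Filled points passed an adjusted p of 0.05. NQO1 stands at 0.30 and 1.04, HMOX1 at -0.26 and 0.85, and GCLM near 0 at both doses.

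At 10 µM CoCl2, 4 of the 10 genes were higher than in H2O (NFE2L2, NQO1, SLC7A11 and TXNRD1) and 0 were lower, where 11.6% of all genes were called higher and 11.1% lower. Their median log2 fold change was 0.09. The calls of NFE2L2 and SLC7A11 were lost under DESeq2 (adjusted p = 0.123 and 0.201), in the fit of all 14 libraries (0.219 and 0.218), without H2O replicate 1 (0.0753 and 0.121) and without CoCl2 10 µM replicate 1 (0.164 and 0.0570). SLC7A11 was also lost without CoCl2 10 µM replicate 2 (0.105). Between 10 and 50 µM, 7 genes were higher at 50 µM and 0 lower, against 26.2% and 26.5% of all genes. Those 7 were HMOX1, OSGIN1, NQO1, SLC7A11, KEAP1, TXNRD1 and NFE2L2, with log2 fold changes of 1.11, 1.13, 0.75, 0.36, 0.30, 0.23 and 0.10. The 2 comparisons with H2O share the H2O libraries, and both comparisons with 50 µM share the 50 µM libraries. CD68, a macrophage marker that other cells also carry, averaged 5.20 CPM in H2O and 18.9 CPM at 50 µM while PTPRC stayed at or near 0, and the fibroblast markers DCN and PDGFRB averaged 106 and 39.3 CPM in H2O and 162 and 14.9 CPM at 50 µM. Their summed level with LUM was 164 CPM in both H2O libraries and 189 to 193 CPM at 50 µM. The part of these markers in the results was not tested.

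Beyond the 10 genes, 51 other genes of the pathway were followed in 7 lists. At 50 µM CoCl2, 27 of the 48 that could be tested rose and 9 fell, with a median log2 fold change of 0.13. These counts and those of the lists stand beside the 30.4% higher and 31.1% lower among all genes, and the glutathione list, with 2 of 7 in each direction, was near that background. The lists for iron and carbonyl metabolism had the largest medians, at 0.51 and 0.82. In the heme and iron list, 4 of 6 rose and 2 fell. FTL, the light chain of the iron store ferritin, read 396 and 405 CPM in H2O and 692 and 711 CPM at 50 µM, a rise of 0.81 on the log2 scale (adjusted p = 4.08e-96). FTH1, the heavy chain, rose by 0.66 and BLVRB, a biliverdin reductase that acts after heme oxygenase, by 1.21. Ferritin genes have many processed pseudogenes, and how reads that fit several places were treated is not given in the sources used here.

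Among other genes of carbonyl, quinone and drug metabolism, 4 of 7 tested rose at 50 µM and 0 fell. AKR1C3, an aldo-keto reductase, read 5.21 and 5.14 CPM in H2O, 6.61 and 6.66 at 10 µM, and 20.8 and 22.1 at 50 µM. That was a rise of 2.05 on the log2 scale (SE 0.078, adjusted p = 5.20e-59), larger than that of any of the 10 genes. AKR1C1 rose by 1.66 and EPHX1, an epoxide hydrolase, by 0.82. The AKR1C genes are close paralogs and their reads may be divided between them uncertainly.

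The other lists had smaller medians, at most 0.35, that of the ATF4 list. Of 12 further regulators of NRF2, 6 rose and 4 fell at 50 µM. SQSTM1, the autophagy adaptor p62 that can displace NRF2 from KEAP1, rose by 0.51 (adjusted p = 3.81e-34), NFE2L1 by 0.20, and BACH1, a repressor that competes at antioxidant response elements, by 0.37. Of 7 other glutathione genes tested, 2 rose and 2 fell, GPX4 and GSTP1 upward by 0.25 and 0.13 and GSTM3 downward at -0.22. TXN rose by 0.17 and PRDX6 by 0.05, and PRDX1 gave -0.002 (adjusted p = 0.927). Of 6 NADPH-supplying enzymes, 4 rose and 1 fell, with TKT at 0.18 and IDH1, an isocitrate dehydrogenase, at -0.64 (adjusted p = 8.56e-46). In the ATF4 list, 5 of 7 rose and 0 fell, and ATF4, ASNS and SLC3A2, the partner subunit of SLC7A11, rose by 0.35, 0.50 and 0.34. At 10 µM, 17 of the 48 genes rose and 3 fell, with a median of 0.05, beside 11.6% and 11.1% of all genes.

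**Figure D3:**
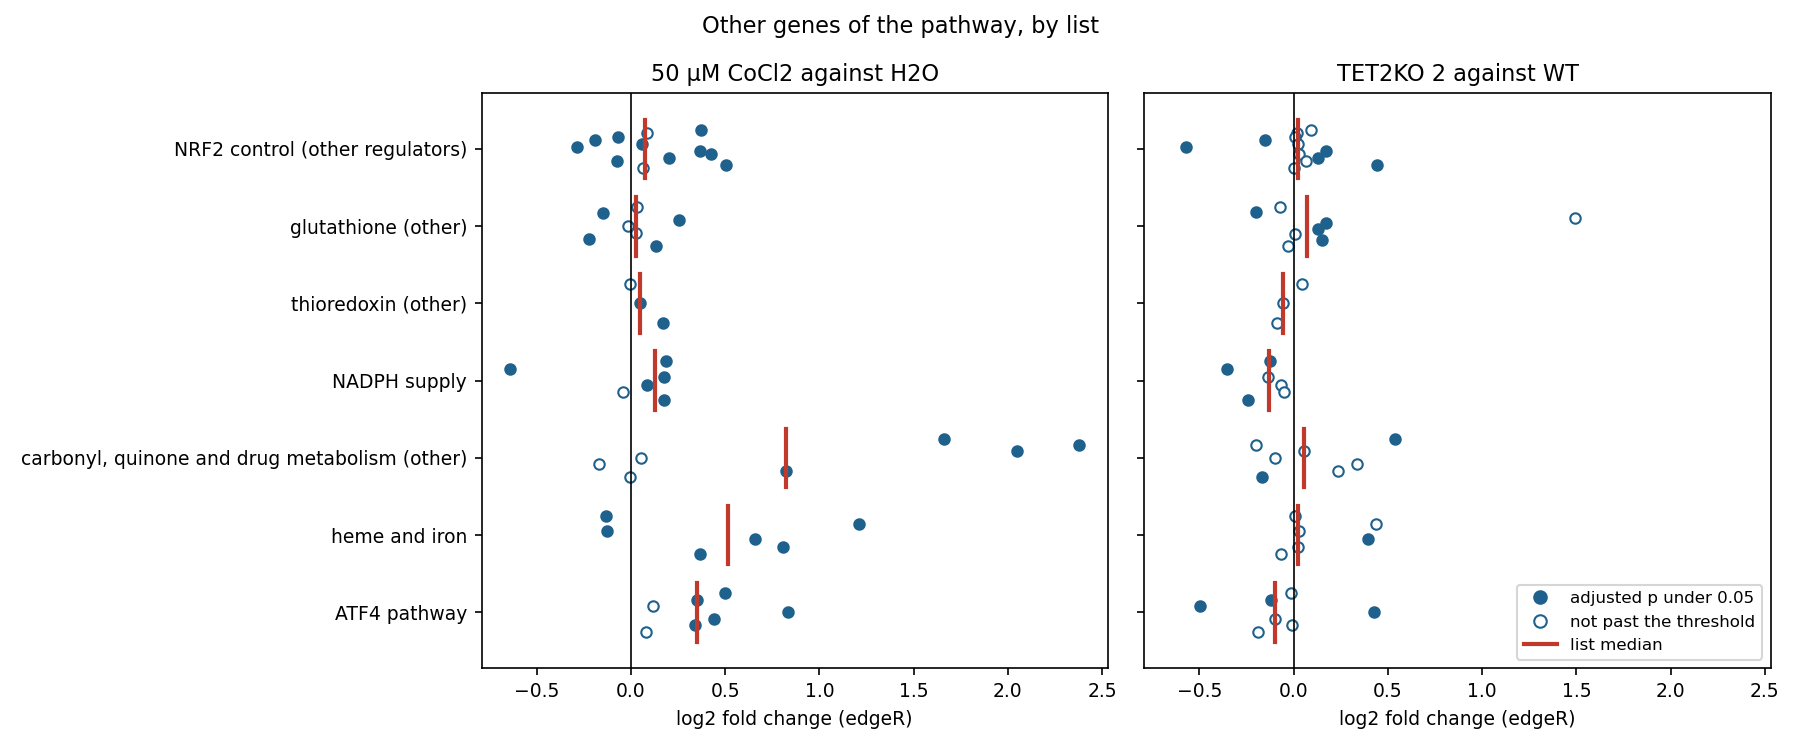
Log2 fold changes of the other pathway genes (horizontal axis) by list (vertical axis) at 50 µM CoCl2 against H2O and in TET2KO #2 against WT. Filled points passed an adjusted p of 0.05 and red lines are list medians. The carbonyl and iron lists have medians of 0.82 and 0.51 at 50 µM and of 0.05 and 0.03 in TET2KO #2.

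The second question was whether the pathway differs in the labelled TET2 knockouts. Of the 9 genes tested in batch 2, TET2KO #1 had 0 called, TET2KO #2 had 5 higher and 0 lower, and TET2KO #3 had 0 higher and 4 lower, by edgeR. The share of all 14061 genes called higher and lower was 7.79% and 9.72% for TET2KO #1, 12% and 14.3% for TET2KO #2, and 8.9% and 9.96% for TET2KO #3. The median log2 fold changes of the 9 genes were 0.03, 0.31 and -0.16. For TET2KO #1, 3 genes had an unadjusted p under 0.05 (KEAP1, GCLC and TXNRD1), DESeq2 called 0, and the fit of all 14 libraries called those 3. The 3 comparisons share the WT libraries.

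HMOX1 read 5.75 and 5.60 CPM in WT, 6.08 and 5.49 in TET2KO #1, 8.93 and 9.23 in TET2KO #2, and 5.23 and 4.87 in TET2KO #3. The libraries of TET2KO #2 stood above all the others. The difference from WT was 1.60-fold, 0.68 on the log2 scale (SE 0.130, adjusted p = 7.00e-06), in TET2KO #2. SLC7A11 read 11.3 and 10.4 CPM in WT, 10.6 and 9.75 in TET2KO #1, 15.3 and 16.0 in TET2KO #2, and 8.49 and 8.81 in TET2KO #3. It was high in TET2KO #2, at 0.53 on the log2 scale (SE 0.100, adjusted p = 4.02e-06), and low in TET2KO #3, at -0.32 (SE 0.114, adjusted p = 0.0297).

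For glutamate-cysteine ligase, GCLM passed in 2 of the labelled knockouts and GCLC in none. GCLM read 38.8 and 38.1 CPM in WT, 41.5 and 38.0 in TET2KO #1, 47.4 and 48.9 in TET2KO #2, and 33.2 and 35.0 in TET2KO #3. It was higher in TET2KO #2 by 0.33 on the log2 scale (SE 0.061, adjusted p = 3.03e-06) and lower in TET2KO #3 at -0.17 (SE 0.065, adjusted p = 0.0420). GCLC read 48.1 and 49.2 CPM in WT and 49.5 to 54.8 CPM in the 6 knockout libraries, all above WT. None of its 3 differences passed, with log2 fold changes of 0.15, 0.14 and 0.05 and adjusted p-values of 0.0578, 0.0537 and 0.603.

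KEAP1 read 83.1 and 81.3 CPM in WT, 88.3 and 89.0 in TET2KO #1, 102 CPM in both TET2KO #2 libraries, and 88.7 and 82.8 in TET2KO #3. Only in TET2KO #2 did it pass, at 0.31 on the log2 scale (SE 0.046, adjusted p = 5.04e-09). NFE2L2 read 96.2 and 96.9 CPM in WT, 95.1 and 90.6 in TET2KO #1, 93.3 and 98.9 in TET2KO #2, and 88.2 and 86.4 in TET2KO #3. Thus the repressor was higher in TET2KO #2 and NFE2L2 gave -0.007 there, with an interval of -0.10 to 0.08 (adjusted p = 0.938). NFE2L2 was lower in TET2KO #3 at -0.14 (SE 0.046, adjusted p = 0.0150).

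NQO1 read 50.4 and 52.9 CPM in WT, 48.0 and 49.9 in TET2KO #1, 50.3 and 50.2 in TET2KO #2, and 45.0 and 43.7 in TET2KO #3. NQO1 was lower in TET2KO #3, at -0.22 (SE 0.058, adjusted p = 0.00224), and gave -0.04 (interval -0.15 to 0.07) in TET2KO #2. TXNRD1 read 419 and 417 CPM in WT, 436 and 438 in TET2KO #1, 452 and 441 in TET2KO #2, and 409 and 401 in TET2KO #3. Its difference in TET2KO #2 was small, at 0.10 (SE 0.032, adjusted p = 0.0155), and was lost without WT replicate 1 (adjusted p = 0.0712), WT replicate 2 (0.114) or TET2KO #2 replicate 1 (0.207). OSGIN1 read 1.24 and 1.25 CPM in WT, 1.18 and 0.812 in TET2KO #1, 1.54 and 1.90 in TET2KO #2, and 0.752 and 0.819 in TET2KO #3. With 42 to 105 counts per library its intervals were wide, and none of its differences from WT passed. SRXN1, fitted without a filter, gave -0.45, 0.58 and 0.02 in TET2KO #1, #2 and #3 with no call.

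The 4 lower calls in TET2KO #3 depended on single libraries. Leaving out WT replicate 1, WT replicate 2, TET2KO #3 replicate 1 or TET2KO #3 replicate 2 left 1, 1, 1 and 2 of the 4 called. GCLM was also lost under DESeq2 (adjusted p = 0.0650) and without TET2KO #2 replicate 1 (0.0503). The 4 calls of TET2KO #2 other than TXNRD1 held each time a library was left out. CD68 averaged 11.1 CPM in WT and 14.8 CPM in TET2KO #2, MYCN averaged 4639 and 2826 CPM, and the summed endothelial markers were 7.57 to 7.62 CPM in WT and 0.624 to 2.64 CPM in the knockouts. From WT to TET2KO #2, PDGFRB went from 42.8 to 13.9 CPM and DCN from 21.5 to 47.8 CPM, with summed fibroblast markers of 86.7 to 88.9 and 78.2 to 79.7 CPM. Mitochondrial genes took 2.596% and 2.649% of the counts in WT, 2.05% and 2.03% in TET2KO #1, 1.71% in both TET2KO #2 libraries, and 3.11% and 3.17% in TET2KO #3. With those genes left out of the fit the numbers called were again 0, 5 and 4. The part of these markers in the results was not tested.

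**Figure D4:**
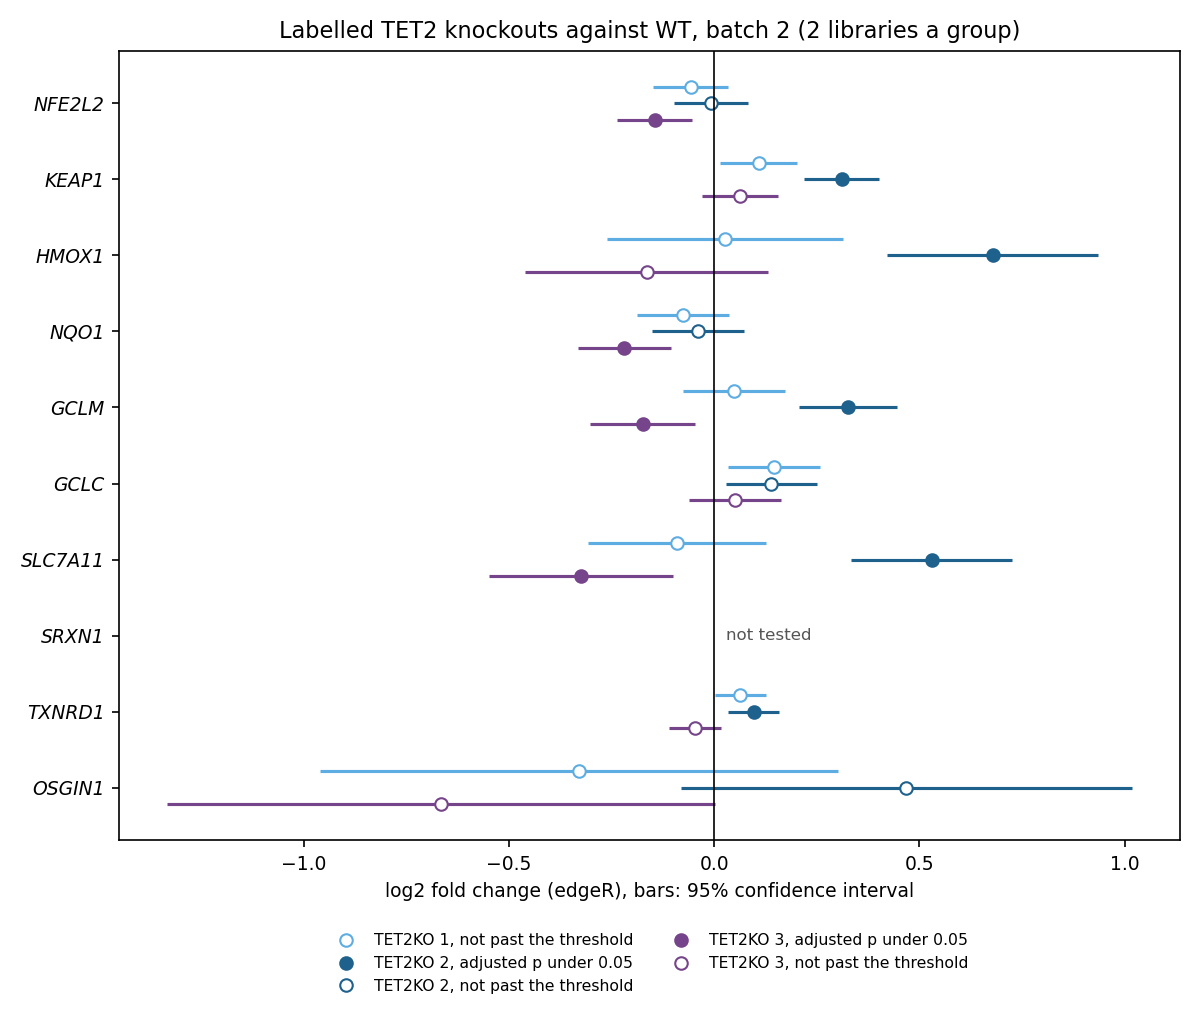
Log2 fold change of each gene against WT in TET2KO #1 (light blue), #2 (dark blue) and #3 (purple), with 95% confidence intervals, from 2 libraries a group. Filled points passed an adjusted p of 0.05 and SRXN1 was not tested. HMOX1 stands at 0.68 in TET2KO #2 and SLC7A11 at 0.53 in TET2KO #2 and -0.32 in TET2KO #3.

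The difference among the 3 labelled knockouts was itself tested. It passed for 8 of the 9 genes, all but GCLC, where 37.6% of all genes were called. The span from the lowest to the highest knockout was widest for OSGIN1 at 1.13 on the log2 scale (adjusted p = 0.00356), SLC7A11 at 0.86 (adjusted p = 4.33e-13), HMOX1 at 0.84 (adjusted p = 1.76e-08) and GCLM at 0.50 (adjusted p = 7.19e-12). For all 8 genes the highest fold change from WT was in TET2KO #2 and the lowest in TET2KO #3. The call of NFE2L2 was lost without TET2KO #1 replicate 1 (adjusted p = 0.0553), TET2KO #2 replicate 2 (0.258), TET2KO #3 replicate 1 (0.0987) or TET2KO #3 replicate 2 (0.218). That of NQO1 was lost without TET2KO #2 replicate 1 (0.0655), TET2KO #2 replicate 2 (0.0563), TET2KO #3 replicate 1 (0.0706) or TET2KO #3 replicate 2 (0.187), and that of OSGIN1 without TET2KO #2 replicate 2 (0.117).

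Of 49 other pathway genes tested, 9 were higher and 2 lower in TET2KO #1, 9 and 9 in TET2KO #2, and 6 and 6 in TET2KO #3, with medians of 0.05, 0.005 and 0.01. Among all genes the shares were 7.79% and 9.72%, 12% and 14.3%, and 8.9% and 9.96%. Of 8 other glutathione genes tested, 5 were higher and 0 lower in TET2KO #1, GSTP1 by 0.20, GPX4 by 0.16 and GSR, glutathione reductase, by 0.13. In TET2KO #2, SQSTM1 was higher by 0.44 (adjusted p = 2.45e-13) and FTH1 by 0.40 (adjusted p = 2.62e-13). FTL read 720 and 730 CPM in WT and 795 and 826 CPM in TET2KO #1, where it was higher by 0.16 (adjusted p = 4.62e-06). AKR1C3 read 11.1 and 10.9 CPM in WT, 7.53 and 7.82 in TET2KO #1, and 6.94 and 5.65 in TET2KO #3. It was lower in both, at -0.52 (adjusted p = 0.000294) and -0.79 (adjusted p = 2.39e-08). In TET2KO #2, IDH1 and TKT were lower at -0.36 and -0.24, and MAFF, a small MAF partner of NRF2, was lower at -0.57. BACH1 was lower in TET2KO #3 at -0.31 (adjusted p = 4.23e-05).

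The cobalt response at 50 µM was set beside the difference in TET2KO #2. The 2 comparisons share no library, and the difference between their log2 fold changes was tested in 1 fit of all 14 libraries, chosen after the separate results had been seen. It passed for 4 of the 10 genes, 3 with a larger cobalt response and 1 with a smaller one, where 14.6% and 14.5% of all 14493 genes did. NQO1 responded more to cobalt by 1.08 on the log2 scale (SE 0.069, adjusted p = 4.10e-15), TXNRD1 by 0.23 (SE 0.035, adjusted p = 1.70e-06) and NFE2L2 by 0.20 (SE 0.053, adjusted p = 0.00450). GCLM went the other way, at -0.32 (SE 0.081, adjusted p = 0.00213). For HMOX1, SLC7A11 and KEAP1 the differences were 0.17 (95% interval -0.18 to 0.52), 0.007 (-0.22 to 0.23) and 0.04 (-0.08 to 0.16), and none passed. OSGIN1 gave 0.78 with an interval of 0.11 to 1.46 (adjusted p = 0.0734). Batch and comparison cannot be told apart here, since cobalt was given in 1 batch and the knockouts were in the other.

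**Figure D5:**
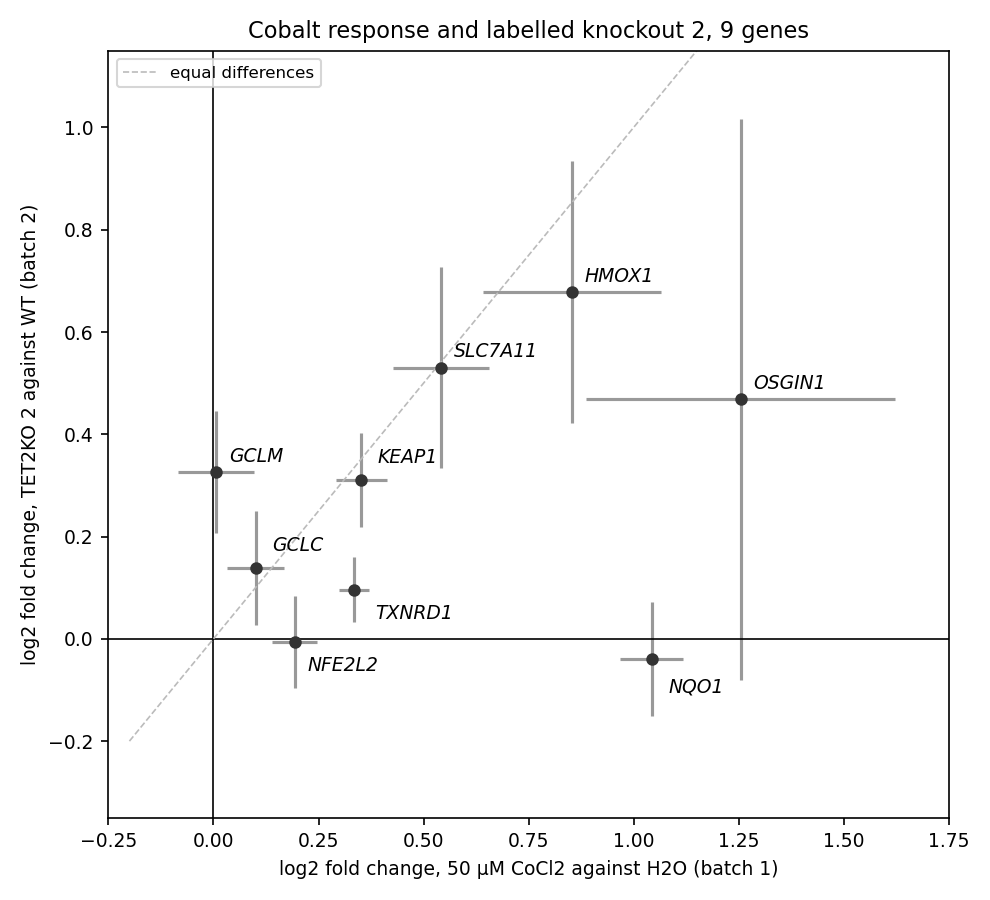
Log2 fold change at 50 µM CoCl2 against H2O (horizontal axis) and in TET2KO #2 against WT (vertical axis) for the 9 genes tested in both, with 95% confidence intervals. The dashed line marks equal differences. NQO1 lies far to the right near 0 on the vertical axis, GCLM lies near 0 on the horizontal axis at 0.33, and SLC7A11 lies on the dashed line.

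The genes most like HMOX1 and NQO1 were sought by Pearson's r of log2 CPM, centred on the batch mean, over the 14 libraries and 13373 genes. Libraries of a group share their condition, so r is a description. For HMOX1 the first 5 were DPF3, SQSTM1, KIF1C, EDNRA and DNAJB2, with r from 0.977 to 0.957. These had log2 fold changes of 0.40 to 1.02 at 50 µM CoCl2 and of 0.37 to 0.88 in TET2KO #2. For NQO1 they were PHKA2, ALCAM, HBS1L, SMG5 and PDIA3, with r from 0.974 to 0.966. These had 0.27 to 0.80 at 50 µM and -0.17 to 0.12 in TET2KO #2.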

How the data were processed

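RNA-seq counts per gene name of 14 libraries were used as the authors deposited them. Per the file headers, the deposited counts came from featureCounts, version 1.5.3 for batch 1 and 2.0.5 for batch 2, using GENCODE 33 protein-coding exons (GRCh38) and no strand option. The submitters' processing notes name Trimmomatic 0.36, STAR 2.6.1d and Subread 1.5.3. Among counts of 1 to 10, 39.0% to 42.3% were even in batch 1 and 77.3% to 80.5% in batch 2, where a count mostly stood for 1 read of a pair. No columns of per-sample values were left unused.

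The test was edgeR 4.0.16 in R 4.3.3 (TMM after filterByExpr, glmQLFit with robust estimates, glmQLFTest), each batch in a fit of its own, with a dispersion floor of 0.0001001 and Benjamini-Hochberg adjustment over all genes tested. The script was tested on simulated data. CPM values use the TMM effective library sizes of each batch. Alternatives were DESeq2 1.42.0, its size factors, other filters and dispersions, a replicate block, 1 fit of all libraries, and leaving out each library. Genes named were the 10 of the pathway, at most the 3 with the smallest p per list and comparison, and the 5 most like HMOX1 and NQO1. Some items are not reported here. The genes and lists were chosen with earlier results of these data known.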

Additional observations from a re-analysis of the deposited data

Results flagged for a closer look

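Differences among the 3 labelled TET2 knockouts, tested directly by edgeR over the 6 knockout libraries and WT, passed for 8 of the 9 genes, where 37.6% of all 14061 genes passed. Each value is the span, on the log2 scale, between the knockouts with the highest and lowest fold change from WT. They were 1.13 for OSGIN1 (adjusted p = 0.00356), 0.855 for SLC7A11 (adjusted p = 4.33e-13), 0.842 for HMOX1 (adjusted p = 1.76e-08) and 0.501 for GCLM (adjusted p = 7.19e-12). They were smaller for KEAP1 at 0.247 (adjusted p = 2.14e-06), NQO1 at 0.179 (adjusted p = 0.0191), TXNRD1 at 0.142 (adjusted p = 0.000232) and NFE2L2 at 0.138 (adjusted p = 0.0343). The calls of NFE2L2, NQO1 and OSGIN1 were lost when 1 of certain libraries was left out, as given with the comparison.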

How the results depend on the processing

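With 2 libraries a group, single libraries decided the small differences, and the counts of SRXN1 and OSGIN1 limit what can be detected. At 10 µM CoCl2 the 4 genes called became 2 under DESeq2 and 2 in the fit of all 14 libraries, and 2 to 5 when 1 library was left out. For TET2KO #1 the 0 called became 3 in the fit of all 14 libraries and ranged from 0 to 1 with 1 library left out, the 1 being GCLC without TET2KO #3 replicate 1 or 2. For TET2KO #3 the 4 called ranged from 1 to 4, and among the knockouts the 8 called ranged from 5 to 8.

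Values near 0 changed sign without a call. GCLM at 50 µM was -0.0024 without a filter on low counts and ranged from -0.015 to 0.024 with 1 library left out. Over the same left-out fits, KEAP1 at 10 µM ranged from -0.0018 to 0.099, SRXN1 at 10 µM from -0.56 to 0.22 and SRXN1 between the doses from -0.10 to 0.68. In TET2KO #1, HMOX1 ranged from -0.046 to 0.103 and GCLM from -0.013 to 0.112, and NFE2L2 in TET2KO #2 from -0.050 to 0.034. For the cobalt response minus the TET2KO #2 difference, KEAP1 ranged from -0.014 to 0.089 and SLC7A11 from -0.057 to 0.070. The cause of these changes was not tested.

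Same-numbered libraries did not deviate together, with correlations of -0.058 to 0.038, so the numbers were not taken to pair samples. With the replicate block, GCLM in TET2KO #3 lost its call (log2 fold change -0.17, adjusted p = 0.0526), which left 3 genes called there, and the counts of genes called were the same in the other comparisons. The number of genes called over all genes fell from 3098 to 1122 under DESeq2 and to 796 in the fit of all 14 libraries at 10 µM CoCl2, and from 7198 to 4674 in the latter between the doses. With 1 library left out it ranged from 1860 to 3291 at 10 µM, from 1375 to 2586 for TET2KO #1 (2462 with all libraries), from 2406 to 3766 for TET2KO #2 (3698) and from 1568 to 2615 for TET2KO #3 (2653).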
